A study of Arabidopsis thaliana with 24 samples.

Results

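The morning genes of the Arabidopsis circadian clock described here are 10 genes, 8 coding for single-MYB transcription factors and 2 for the LNK coactivators. They were taken by locus identifier for their known roles, with no threshold on a measured value, though earlier results of these data were known. The expression table of 24503 genes held all 10. All 10 passed the filter on low reads and were among the 19614 genes tested. RNA was measured by RNA-seq in whole rosettes of jaz4-1, a T-DNA insertion line (SALK_141628C) in JAZ4, which codes for a repressor of jasmonate signalling, and of Col-0, the wild-type accession (stock CS60000). The plants were 3 weeks old and grew on soil at 22 °C with 12 h of light a day, with no hormone or other treatment named in the labels. Rosettes were cut at dawn (ZT0, hours since lights on), ZT6, ZT12 (dusk) and ZT18, so the study compared the lines at each time and the times within each line. Each of the 8 groups of line and time had 3 biological replicates, each a pool of 6 rosettes. The labels name 1 insertion line, so an effect of JAZ4 and an effect of anything else that differs between the seed stocks cannot be told apart. The samples are bulk tissue, so fewer cells of a type and less RNA per cell cannot be told apart either.

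CCA1 and LHY are closely related MYB factors that accumulate around dawn and repress genes of the day and evening, among them TOC1 and the PRR genes, whose products repress CCA1 and LHY in turn. RVE8, RVE4 and RVE6 belong to the same MYB family but activate evening-phased genes, with LNK1 and LNK2, which lack a DNA-binding domain of their own, as partners at the DNA. RVE1, RVE2 (also CIR1) and RVE7 (also EPR1) form a further branch that carries clock timing to outputs such as auxin synthesis and seed dormancy rather than sustaining the rhythm.

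The promoters of these genes are shown first, because the G-box (CACGTG, read on both strands) is a sequence that 7 of them hold near the start of the gene. The window ran from 250 bases before to 50 bases after the start annotated by RefSeq on TAIR10.1, and 8.49% of 22710 gene promoters of that length held a G-box. Occurrences of a motif could overlap. Each of the following lines gives 10 bases on either side of the motif, 5′ to 3′ on the strand of the gene, with the G-box in capitals.
CCA1 (chr2:19245388-19245413, plus strand): gtgtatcagaCACGTGtcgacaaact
LHY (chr1:37936-37961, minus strand): acaatatcacCACGTGtcgatctgcg
RVE8 (chr3:2946240-2946265, plus strand): tacaagtctaCACGTGcttcaagctt
RVE1 (chr5:5693088-5693113, minus strand): gaaagagcgaCACGTGgcaaagatgg
RVE2 (chr5:14753236-14753261, minus strand): agaaatcctcCACGTGtcattagcat
LNK1 (chr5:25676810-25676835, minus strand): atttagttgcCACGTGttgatatcat
LNK2 (chr3:20179031-20179056, minus strand): actcgtttggCACGTGaccatttcat
In LNK1 the motif spans the annotated start, and in RVE8 and LNK2 it lies after it. RVE4, RVE6 and RVE7 held no CACGTG in this window. A match describes these letters and does not show that a factor binds there.

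Elements to which factors of this MYB family bind were rarer in the same windows. The evening element, searched as AAAATATCT on both strands, occurred in 1 of the 10 promoters, that of RVE7, against 2.97% of the 22710 promoters. The CCA1-binding site, searched as AAAAATCT on both strands, occurred in those of RVE2 and RVE6, against 7.88% of all. The TCP site, an element of another factor family searched as GGNCCC on both strands, occurred in that of CCA1, against 9.52% of all. The motif is in capitals in the following lines.
RVE7 (chr1:6308275-6308303, minus strand): taatcacaaaAAAATATCTtcttcataat
RVE2 (chr5:14753315-14753342, minus strand): ttaaacaattAAAAATCTccgacaagat
RVE6 (chr5:21362314-21362341, minus strand): acataaatggAAAAATCTttattataaa
RVE1, the member for which the lines differed below, is shown with its whole window, chr5:5692943-5693242 on the minus strand, again with the G-box in capitals.
RVE1 promoter: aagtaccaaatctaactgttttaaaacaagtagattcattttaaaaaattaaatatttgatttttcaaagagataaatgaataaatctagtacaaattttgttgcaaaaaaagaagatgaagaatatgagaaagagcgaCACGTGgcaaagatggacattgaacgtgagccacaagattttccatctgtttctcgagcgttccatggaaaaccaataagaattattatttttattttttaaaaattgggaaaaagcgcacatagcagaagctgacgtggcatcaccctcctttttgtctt

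Recovered read totals ran from 16832226 to 22644745 per library (median 20068902), with 18959 to 21863 genes detected. The fewest were detected in jaz4-1 at ZT6 replicate 2 (19151) and in Col-0 at ZT0 replicate 2 (18959). JAZ4 was near the detection floor, with 31 reads in 12 jaz4-1 libraries (0 to 8 a library) and 93 in 12 Col-0 libraries (0 to 23). It was not called different at any time (limma, adjusted p = 0.598 to 1). The rosette label was checked with marker lists. The 4 leaf genes summed to 36269 to 82335 CPM in jaz4-1 and to 39705 to 90761 CPM in Col-0. The 3 root genes in the table summed to 49.9 to 448 CPM in jaz4-1 and to 50.3 to 316 CPM in Col-0, nearly all of it PYK10, while the root hair gene COBL9 stayed at or under 0.221 CPM. The 4 floral organ genes summed to 0.481 to 1.55 CPM in jaz4-1 and to 0 to 1.76 CPM in Col-0. At ZT12, the time of the line difference reported here, the leaf sums were 36269 to 46039 CPM in jaz4-1 and 39705 to 45002 CPM in Col-0, and the root sums were 154 to 448 CPM in jaz4-1 and 210 to 316 CPM in Col-0. At ZT6 the root sums did not overlap between the lines, with 55.9 to 105 CPM in jaz4-1 and 178 to 259 CPM in Col-0, and the leaf sums were 73844 to 82335 CPM in jaz4-1 and 57074 to 75275 CPM in Col-0. Their part in the line differences was not tested.

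Every one of the 10 genes changed over the day in both lines (limma F test over the 4 times, Benjamini-Hochberg adjusted p under 0.05), where 53.5% of all tested genes did so in jaz4-1 and 49.1% in Col-0. For these comparisons the reads of each library were scaled to a common size over all 24 libraries, and they are called scaled reads here. Group values are the mean ± SD of 3 libraries, and log2 differences are given ± SE on the scale of log2(scaled reads + 1). In both lines 7 genes were highest at ZT0 (CCA1, LHY, RVE8, RVE4, RVE1, RVE2 and LNK2) and 3 at ZT6 (RVE6, RVE7 and LNK1). The lowest level fell at ZT12 for CCA1, LHY, RVE8, RVE4 and RVE1, at ZT6 for RVE2, and at ZT18 for RVE6, RVE7, LNK1 and LNK2, again in both lines. For RVE2 and RVE6 the highest and next levels did not differ by the test, and the peak depends on the scaling. Scaled to exon length and library total (RPKM), RVE2 was higher at ZT18 (377 in jaz4-1, 410 in Col-0) than at ZT0 (330 and 342). By that measure RVE6 in jaz4-1 was highest at ZT12 (5.73, beside 5.68 at ZT0 and 5.63 at ZT6). Of the 60 pairs of gene and times, 51 were called different in jaz4-1 and 53 in Col-0. The share of all genes called in jaz4-1 was 42.5% for ZT6 against ZT0, 45.8% for ZT12 against ZT0, 26.9% for ZT18 against ZT0, 19% for ZT12 against ZT6, 25.6% for ZT18 against ZT6 and 13.1% for ZT18 against ZT12. In Col-0, and for the same pairs of times, it was 40.2%, 44.6%, 22.7%, 11.7%, 22.5% and 15.4%.

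**Figure D1:**
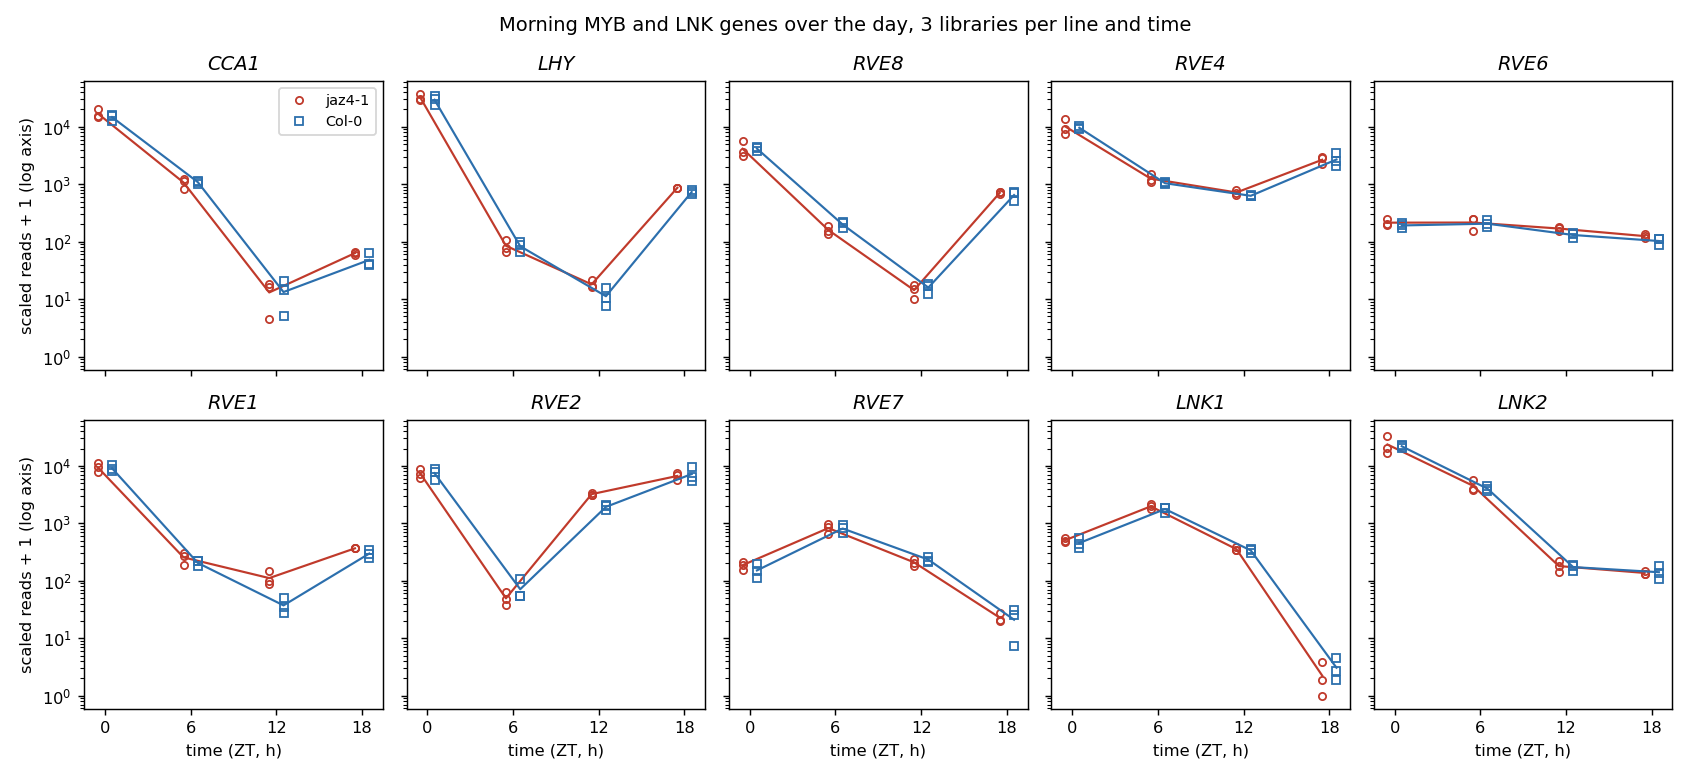
Scaled reads + 1 (log axis) against time in hours since lights on (ZT) for the 10 genes. Red circles are jaz4-1 libraries and blue squares Col-0 libraries, set slightly apart, and lines join the means of 3. The courses of the lines lie close together for most genes and times, and at ZT12 all jaz4-1 libraries of RVE1 sit above all Col-0 libraries.

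At ZT6 against ZT0, 7 of the 10 genes were lower and 2 higher (RVE7 and LNK1) in each line, where 21.1% of all genes were higher and 21.4% lower in jaz4-1 and 20.5% of all genes were higher and 19.7% lower in Col-0. RVE6 was the gene with no call. At ZT12 against ZT6, RVE2 was called higher in both lines, while 8 genes were called lower in jaz4-1 and 9 in Col-0, where 8.26% of all genes were higher and 10.7% lower in jaz4-1 and 4.67% of all genes were higher and 7% lower in Col-0. RVE6 made the difference between these counts. Against ZT12, ZT18 had 6 of the 10 called up and 2 called down in each line, where 6.79% of all genes were higher and 6.28% lower in jaz4-1 and 8.86% of all genes were higher and 6.57% lower in Col-0. The 6 were CCA1, LHY, RVE8, RVE4, RVE1 and RVE2, and the 2 were RVE7 and LNK1.

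The core repressors CCA1 and LHY swung widely. LHY (AT1G01060) had 29615, 30551 and 36966 scaled reads in the 3 jaz4-1 libraries at ZT0 and 15.1, 16 and 20.2 at ZT12. In Col-0 it had 23947, 33869 and 30631 at ZT0 and 6.74, 9.63 and 14.4 at ZT12. No library at ZT12 came near any library at ZT0 in either line. The log2 difference of ZT12 against ZT0 was -10.81 ± 0.21 in jaz4-1 (limma, adjusted p = 2.28e-20) and -11.40 ± 0.21 in Col-0 (limma, adjusted p = 7.08e-21). At ZT18 LHY had come back to 867 ± 11.7 in jaz4-1 and 731 ± 63.9 in Col-0, above its level at ZT6 of 83.9 ± 21.7 in jaz4-1 and 82.4 ± 15.5 in Col-0. All 4 levels of LHY differed from their neighbours in that order.

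CCA1 (AT2G46830) averaged 16989.7 ± 3085 at ZT0, 1073 ± 207 at ZT6, 12.1 ± 7.53 at ZT12 and 62.3 ± 3.81 at ZT18 in jaz4-1. The Col-0 means were 14694 ± 1847 at ZT0, 1088 ± 63.6 at ZT6, 12.3 ± 7.79 at ZT12 and 47.2 ± 14 at ZT18. Its order over the day differed from that of LHY in the middle, with ZT6 above ZT18, and all neighbours in that order differed in both lines. At ZT12 CCA1 rested on few recovered reads, 21, 18 and 4 in jaz4-1 and 26, 5 and 14 in Col-0, and the single libraries spread as widely within a line as between lines. ZT18 exceeded ZT12 by a log2 difference of 2.51 ± 0.44 in jaz4-1 (limma, adjusted p = 0.000719) and 2.04 ± 0.44 in Col-0 (limma, adjusted p = 0.00352). The same step of LHY was 5.60 ± 0.21 in jaz4-1 and 6.08 ± 0.21 in Col-0. Whether the genes differ in this step was not tested.

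Of the evening-gene activators, RVE8 (AT3G09600) had the same order of times as LHY, and RVE4 (AT5G02840) never averaged under 628 scaled reads. RVE8 averaged 4144 ± 1343 at ZT0, 159 ± 27 at ZT6, 13.4 ± 3.80 at ZT12 and 708 ± 32.9 at ZT18 in jaz4-1. In Col-0 the means were 4173 ± 303 at ZT0, 198 ± 26 at ZT6, 14.9 ± 3.01 at ZT12 and 647 ± 111 at ZT18. RVE4 averaged 10172 ± 3338 at ZT0, 1251 ± 221 at ZT6, 718 ± 80.0 at ZT12 and 2665 ± 349 at ZT18 in jaz4-1. In Col-0 RVE4 had means of 9609 ± 611 at ZT0, 1042 ± 38.5 at ZT6, 628 ± 24.2 at ZT12 and 2696 ± 694 at ZT18. For both genes the order was ZT0, ZT18, ZT6 and ZT12, and every neighbouring pair differed in both lines. The log2 difference of ZT12 against ZT0 was -8.16 ± 0.22 in jaz4-1 and -8.05 ± 0.22 in Col-0 for RVE8. For RVE4 it was -3.78 ± 0.19 in jaz4-1 and -3.93 ± 0.19 in Col-0.

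RVE6 (AT5G52660), the remaining activator, was nearly flat. It averaged 214 ± 31.1 at ZT0, 215 ± 53.2 at ZT6, 169 ± 14.8 at ZT12 and 124 ± 11.4 at ZT18 in jaz4-1. In Col-0 RVE6 had means of 191 ± 19.1 at ZT0, 205 ± 30.6 at ZT6, 129.9 ± 12.3 at ZT12 and 102 ± 12.7 at ZT18. Its highest group mean was 1.73 times its lowest in jaz4-1 and 2.01 times in Col-0, whereas for RVE8 it was 310.2 times in jaz4-1 and 279.6 times in Col-0. No neighbouring pair in the order of RVE6 differed in jaz4-1, and ZT0 against ZT12 was the only neighbouring pair that did in Col-0 (log2 difference of ZT12 against ZT0 -0.55 ± 0.19, limma, adjusted p = 0.0193). That limma call was lost without Col-0 ZT0 replicate 2 (adjusted p = 0.0664) and without Col-0 ZT12 replicate 2 (adjusted p = 0.0801), and ran from 0.00883 to 0.0801 over the alternatives. The Col-0 call of ZT12 against ZT6 (log2 difference -0.65 ± 0.19, limma, adjusted p = 0.023) was lost when any of 4 single Col-0 libraries was left out, with an adjusted p of 0.00616 to 0.132 over the alternatives. They were replicates 2 and 3 at ZT6 and replicates 1 and 2 at ZT12.

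Of the output branch, RVE2 (AT5G37260) ran apart from the other dawn genes. It had 62, 37 and 46.2 scaled reads in the jaz4-1 libraries at ZT6 and 3139, 3393 and 3100.0 at ZT12. In Col-0 it had 52.3, 53.2 and 105 at ZT6 and 1711, 2013 and 2063 at ZT12. RVE2 was therefore at its lowest at midday and already high at dusk, when CCA1, LHY, RVE8, RVE4 and RVE1 were at their lowest. On the log2 scale ZT12 exceeded ZT6 by 6.05 ± 0.24 in jaz4-1 (limma, adjusted p = 7.76e-14) and by 4.84 ± 0.24 in Col-0 (limma, adjusted p = 4.72e-12). Its levels at ZT18 (6665 ± 831 in jaz4-1, 7179.5 ± 2203 in Col-0) and at ZT0 (7361 ± 1340.1 in jaz4-1, 7437 ± 1543 in Col-0) did not differ beyond their spread (limma, adjusted p = 0.737 in jaz4-1 and 0.866 in Col-0).

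RVE1 (AT5G17300), of the same branch, had 9419, 7724 and 11012 scaled reads in jaz4-1 at ZT0 and 267, 308 and 187 at ZT6. In Col-0 it had 7974, 8757 and 10373 at ZT0 and 217, 216 and 177 at ZT6. RVE1 fell over the morning in both lines. Its log2 difference of ZT6 against ZT0 was -5.22 ± 0.21 in jaz4-1 and -5.47 ± 0.21 in Col-0. The ZT0 means, 9385 in jaz4-1 and 9035 in Col-0, were also far above those at ZT18. ZT18 was the next level after ZT0, with 365 ± 2.36 in jaz4-1 and 296 ± 44.9 in Col-0, but ZT18 and ZT6 did not pass the test in either line (limma, adjusted p = 0.0606 in jaz4-1 and 0.076 in Col-0). DESeq2 called that pair in both lines (adjusted p = 0.0398 in jaz4-1 and 0.0361 in Col-0), and so did limma-voom (0.0196 in jaz4-1 and 0.031 in Col-0). Over the alternatives the adjusted p ran from 0.0196 to 0.27 in jaz4-1 and from 0.031 to 0.235 in Col-0. RVE1 overlaps AT5G17305 on the opposite strand, a gene not analysed here, whose reads cannot be told apart from those of RVE1 where the counting ignored strand.

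RVE7 (AT1G18330), a phytochrome-responsive gene, peaked at ZT6. It averaged 186 ± 28.8 at ZT0, 823 ± 161 at ZT6, 208 ± 29.9 at ZT12 and 21.7 ± 3.97 at ZT18 in jaz4-1. Col-0 rosettes gave 150.2 ± 41.9 at ZT0, 809 ± 121 at ZT6, 232 ± 27.3 at ZT12 and 20.0 ± 12.2 at ZT18. ZT12 and ZT0, the middle levels in its order, did not pass the test in either line (limma, adjusted p = 0.727 in jaz4-1 and 0.132 in Col-0). Leaving out Col-0 ZT18 replicate 1, in which RVE7 had 7 reads, gave an adjusted p of 0.0148 for that pair in Col-0, and DESeq2 gave 0.03 and limma-voom 0.0418, within 0.0148 to 0.38 over the alternatives. The coding sequence of RVE7 is 98.0% identical over 1009 aligned bases to that of AT3G10113 (RVE7L). Reads that fit both genes may have been split between them or dropped, which was not checked here. Dropped reads would show in neither gene, so the level of RVE7 is uncertain to that extent. RVE7L averaged at most 3.56 scaled reads in any group and was not tested.

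LNK1 (AT5G64170) and LNK2 (AT3G54500), the coactivators, differed in when they peaked and in when they fell. LNK1 averaged 506 ± 39.3 at ZT0, 1969 ± 190.3 at ZT6, 353 ± 24.1 at ZT12 and 1.24 ± 1.44 at ZT18 in jaz4-1. Col-0 averaged 453 ± 95.4 at ZT0, 1765 ± 196 at ZT6, 336 ± 29.1 at ZT12 and 2.07 ± 1.38 at ZT18. At ZT18 it had 1, 3 and 0 recovered reads in jaz4-1 and 4, 2 and 1 in Col-0, so it was at the detection floor in all 6 libraries, and log2 differences against ZT18 depend on the pseudocount. LNK1 at ZT0 and ZT12 did not pass the test in either line (limma, adjusted p = 0.205 in jaz4-1 and 0.321 in Col-0). With the count tools the same pair was called in both lines, at an adjusted p of 0.0154 (edgeR) and 0.00218 (DESeq2) in jaz4-1, and of 0.0465 (edgeR) and 0.0151 (DESeq2) in Col-0. Over the alternatives it ran from 0.00218 to 0.349 in jaz4-1 and from 0.0151 to 0.621 in Col-0. LNK2 averaged 23487 ± 8834 at ZT0, 4476 ± 971 at ZT6, 179 ± 36.6 at ZT12 and 136 ± 8.18 at ZT18 in jaz4-1. Col-0 averaged 21888 ± 1235 at ZT0, 4001 ± 425 at ZT6, 172 ± 22.9 at ZT12 and 139.7 ± 35.7 at ZT18. On the log2 scale LNK2 changed by -4.64 ± 0.21 at ZT12 against ZT6 in jaz4-1 rosettes and by -4.54 ± 0.21 in Col-0 rosettes, and its levels at ZT12 and ZT18 did not differ beyond their spread in either line. No source used here states the strand setting of the counting, and reads of genes that overlap on opposite strands may then be mixed. LNK1 overlaps AT5G64160, with 5422 reads over the 24 libraries against 15461 for LNK1. The genes that overlap LNK2, AT3G54490 and AT3G08405, had 68 and 94 reads against 144108 for LNK2.

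**Figure D2:**
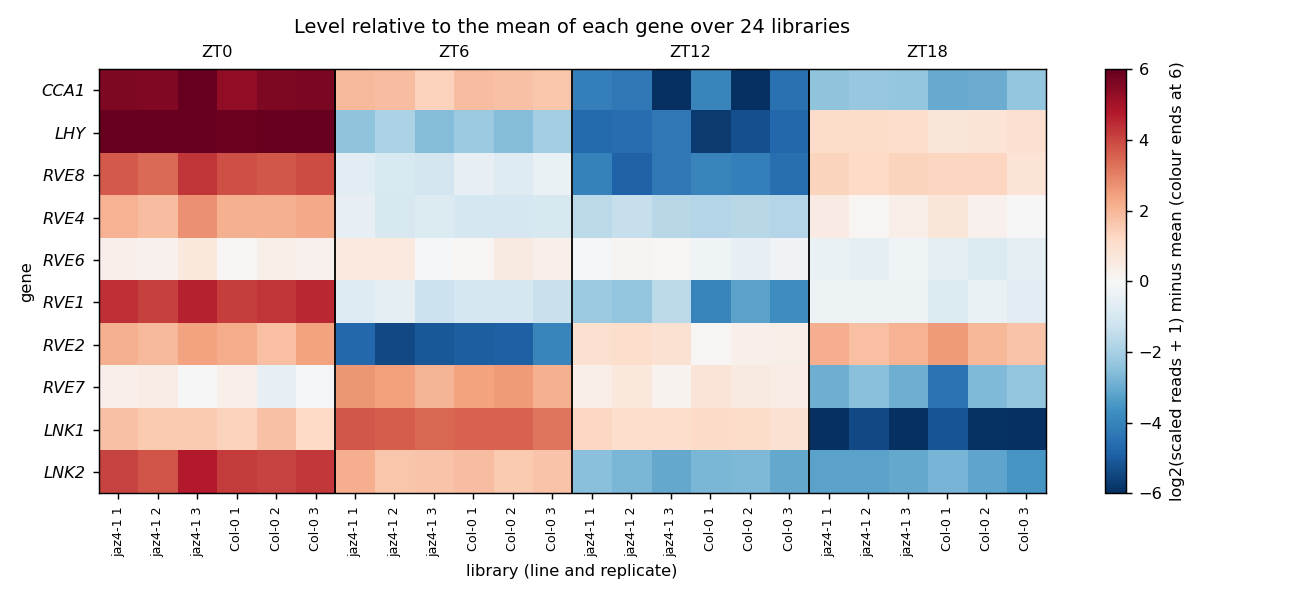
Log2(scaled reads + 1) of each gene minus its mean over the 24 libraries, with 1 column per library in order of time and, within a time, jaz4-1 before Col-0. Red is above and blue below the mean of the gene, and colours end at 6. RVE2 is blue at ZT6, whereas CCA1, LHY, RVE8, RVE4 and RVE1 are darkest blue at ZT12, and LNK1 at ZT18.

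Levels of different genes were compared only per length, as RPKM, reads scaled to the length of annotated exon and to the library total, computed here. At ZT0 LHY was highest of the 10 (417 RPKM in jaz4-1, 382 in Col-0). LNK2, RVE2 and CCA1 held ranks 2 to 4, with 349.9, 330.1 and 274 RPKM in jaz4-1. In Col-0 these genes had 336, 342 and 240.2 RPKM. LNK2 led at ZT6 (66.9 RPKM in jaz4-1, 69.6 in Col-0), and RVE2 led at ZT12 (184 in jaz4-1, 113 in Col-0) and at ZT18 (377 in jaz4-1, 410.1 in Col-0). At dusk the next gene after RVE2 was RVE4, with 19.2 RPKM in jaz4-1 and 17.2 in Col-0, while CCA1, LHY and RVE8 had 0.248, 0.281 and 0.320 RPKM in jaz4-1 and 0.263, 0.172 and 0.368 in Col-0. RVE6 stayed between 3.51 and 6.29 RPKM in all 8 groups.

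Between the lines, RVE1 at dusk was the 1 difference of the 10 genes that passed the test at a single time. RVE1, a MYB factor that in Arabidopsis raises auxin synthesis by way of YUC8, had 115, 101 and 175 normalised reads in the jaz4-1 libraries at ZT12, against 32.2, 57 and 39.8 in the Col-0 libraries. Normalised reads are the deposited values, scaled by the authors within each time. Every jaz4-1 library lay above every Col-0 library, on 116, 102 and 168 recovered reads in jaz4-1 and 36, 60 and 35 in Col-0. The mean was 131 ± 39.2 in jaz4-1, against 43 ± 12.7 in Col-0 (SD of 3 libraries), and the log2 difference was 1.58 ± 0.21 (SE; 95% confidence interval 1.14 to 2.02; limma, adjusted p = 0.000359). That call was lost when the 6 libraries of ZT12 were fitted alone in limma (adjusted p = 0.109), and over all alternatives the adjusted p ran from 5.69e-08 to 0.109. At this time 0.321% of all tested genes were called, and 0.296% were called higher in jaz4-1. The authors' deposited table also lists RVE1 as different at ZT12, with a log2 fold change of 0.77 and an adjusted p of 0.001697669. How that fold change was made is not stated in the file headers, and it is smaller than the log2 difference given above.

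At the other times RVE1 did not pass the test. At ZT0 it had 8059, 6645 and 9490.3 normalised reads in jaz4-1 and 6896, 7463 and 8957 in Col-0. At ZT6 it had 243, 284 and 173 in jaz4-1 and 201, 201 and 164 in Col-0. At ZT18 it had 395, 396 and 392 in jaz4-1 and 269.6, 369 and 319 in Col-0. The lines overlapped at ZT0 and ZT6 and were apart at ZT18. The log2 differences were 0.05 ± 0.21 at ZT0, 0.28 ± 0.21 at ZT6 and 0.32 ± 0.21 at ZT18 (limma, adjusted p = 0.951, 0.471 and 1). Averaged over the 4 times the difference was 0.56 ± 0.11 (95% confidence interval 0.33 to 0.78; limma, adjusted p = 0.00345, and 1.22e-05 to 0.0134 over the alternatives), and RVE1 was again the 1 gene of the 10 called, where 4.68% of all genes were.

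Whether the RVE1 difference was larger at dusk was tested by a contrast planned for each time. The one for ZT12 reuses the libraries of the call above, so it is not separate evidence. The line difference of RVE1 at ZT12 exceeded its mean at the other times by 1.36 ± 0.25 (limma, adjusted p = 0.0232), a contrast that 0.0969% of all genes passed. The F test of any dependence on time did not pass for RVE1 (F = 10.5, limma, adjusted p = 0.0671), and none of the 10 genes passed it, where 0.194% of all genes did. RVE1 and RVE2 had an unadjusted p under 0.05 in the F test. The share of all genes at that threshold was not counted, so nothing is drawn from this. DESeq2 called RVE1 in that test (adjusted p = 0.00147), and edgeR and limma-voom called no gene (adjusted p of RVE1 0.0893 with edgeR and 0.345 with limma-voom), and without Col-0 ZT12 replicate 2 RVE1 was called by limma at 0.0441. The contrast of ZT12 with the other times was lost with limma-voom (adjusted p = 0.334), without jaz4-1 ZT12 replicate 3 (0.144), without Col-0 ZT12 replicate 1 (0.181) and without Col-0 ZT12 replicate 3 (0.0736), and over all alternatives its adjusted p ran from 0.000342 to 0.334. Within each line, RVE1 at ZT12 against ZT0 was -6.42 ± 0.21 in jaz4-1 and -7.95 ± 0.21 in Col-0 on the log2 scale.

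RVE2 at dusk was apart between the lines but did not pass the test. It had 3726, 3999 and 3679 normalised reads in jaz4-1 and 2043, 2383 and 2445 in Col-0, so the lowest jaz4-1 library lay well above the highest Col-0 library. The log2 difference was 0.73 ± 0.24 (95% confidence interval 0.23 to 1.24; limma, adjusted p = 0.477). With the 6 libraries of ZT12 fitted alone in limma, RVE2 was called (adjusted p = 0.0222) and RVE1 was not. That fit takes the spread of each gene from dusk only. The SD of RVE2 in scaled reads was 4.96% of the mean in jaz4-1 and 9.87% in Col-0 at ZT12. In the same order of lines it was 18.2% and 20.7% at ZT0, 26.1% and 42.9% at ZT6, and 12.5% and 30.7% at ZT18. The part of these spreads in the change of call was not tested. The authors' deposited table, whose values were scaled for each time apart, lists RVE2 at ZT12 with a log2 fold change of 0.67 and an adjusted p of 4.73e-09. Over all alternatives the adjusted p of RVE2 ran from 0.0222 to 1. The opposite sign was measured for RVE2 at ZT6 (56.6, 34.1 and 42.8 in jaz4-1, 48.5, 49.7 and 97.4 in Col-0), where the lines overlapped and the log2 difference was -0.49 ± 0.24 (limma, adjusted p = 0.254).

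LHY and RVE6 also had jaz4-1 libraries above all Col-0 libraries at ZT12. LHY had 17.9, 18.8 and 24 normalised reads in jaz4-1 and 8.05, 11.4 and 17.1 in Col-0, at the low point of its cycle and on 18, 19 and 23 recovered reads in jaz4-1 and 9, 12 and 15 in Col-0. Its log2 difference was 0.74 ± 0.21 (limma, adjusted p = 0.263), and without Col-0 ZT12 replicate 3 it was called (0.99, adjusted p = 0.0386; 0.0386 to 1 over all alternatives). RVE6 had 181, 214 and 203 in jaz4-1 and 159, 138 and 166 in Col-0, a log2 difference of 0.37 ± 0.18 (limma, adjusted p = 1). With RVE1 and RVE2 this made 4 of the 10 genes with every jaz4-1 library above every Col-0 library at ZT12, where 7.49% of all genes were so placed. At ZT18 LHY, RVE6 and RVE1 were so placed, 3 of 10 against 5.03% of all genes. At ZT0 and ZT6 the lines overlapped for all 10 genes, where 11.4% and 26.8% of all genes did not overlap in 1 direction or the other.

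**Figure D3:**
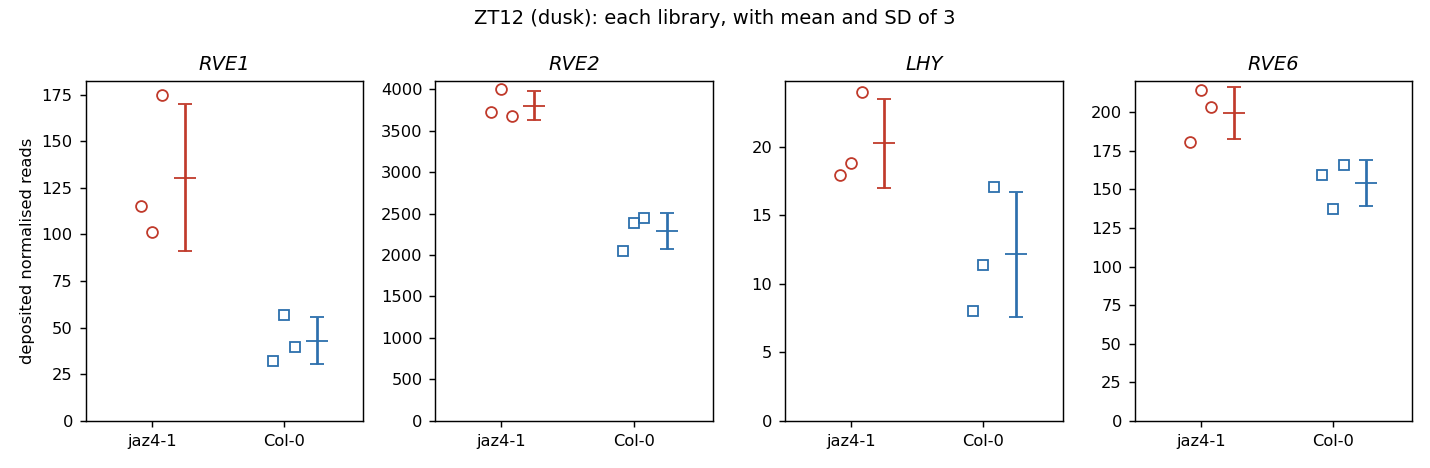
Deposited normalised reads of RVE1, RVE2, LHY and RVE6 at ZT12 in each library, jaz4-1 (red circles) left of Col-0 (blue squares), with the mean and SD of 3 beside the points. In each panel the lowest jaz4-1 library is above the highest Col-0 library, and the axis starts at 0.

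No other line difference of these genes was called. At ZT0, ZT6 and ZT18 limma called 0 of the 10, where 0.923%, 2.95% and 0.138% of all genes were called. Under an unadjusted 0.05 limma had 0 of the 10 at each, where 2556, 4001 and 595 of the 19614 tested genes passed. edgeR, DESeq2 and limma-voom called 0 at these times as well, with 1 gene under an unadjusted 0.05 in DESeq2 at ZT6 and 1 in limma-voom at ZT18. The median log2 difference of the 10 genes was 0.09 at ZT0, 0.01 at ZT6, 0.12 at ZT12 and 0.20 at ZT18, beside medians over all tested genes of 0.01, -0.04, 0.00 and 0.00. CCA1 at ZT0, at its peak, had 13118, 12981 and 17709.7 normalised reads in jaz4-1 and 10896, 13122 and 13889.8 in Col-0, and its interval for the log2 difference, -0.74 to 1.15, leaves room for a change of either sign. For LHY at ZT0 (25339.8, 26284 and 31857 in jaz4-1, 20710.1, 28862 and 26447 in Col-0) the interval was -0.29 to 0.57. LNK1 at ZT18 had the lowest estimate of all, -0.59 ± 0.33, on a total of 4 reads in jaz4-1 and 7 in Col-0.

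**Figure D4:**
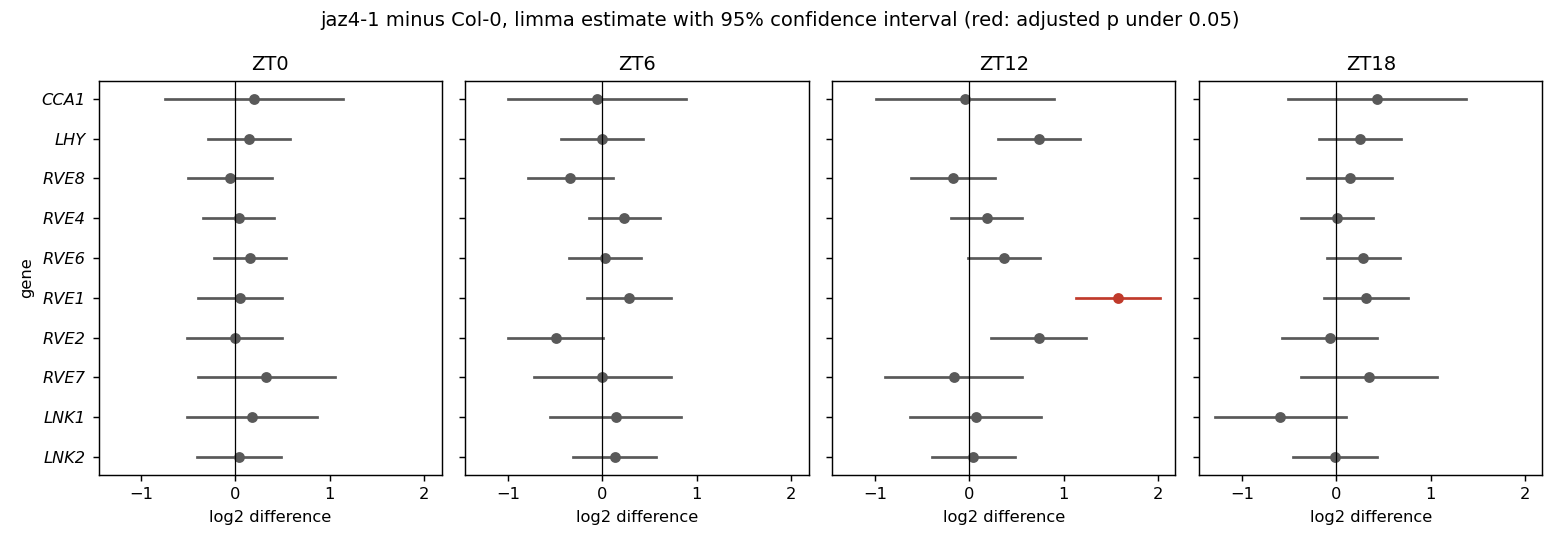
Log2 difference of jaz4-1 minus Col-0 with its 95% confidence interval for the 10 genes at each time, from limma on log2(deposited value + 1). Red marks an adjusted p under 0.05, which RVE1 at ZT12 reached, and the intervals of LHY and RVE2 at ZT12 also lie above 0 without an adjusted p under 0.05.

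The other genes of the system were described from lists chosen with earlier results of these data known. Of the remaining RVE and LNK genes 4 of 5 were tested (RVE3, RVE5, LNK3 and LNK4). All 4 changed over the day in both lines, where 53.5% of all genes did in jaz4-1 and 49.1% in Col-0. Between the lines limma called 0 of the 4, where 0.923% of all genes were called at ZT0, 2.95% at ZT6, 0.321% at ZT12, 0.138% at ZT18 and 4.68% on average. With so few genes, 0 calls at these shares say little about the list. edgeR, DESeq2 and limma-voom called 0 as well. An unadjusted p under 0.05 was reached by 0 of the 4 at any time or on average, beside 595 to 4101 of the 19614 tested genes in limma. LNK3, a relative of LNK1 and LNK2, was highest at ZT0 as LNK2 was. LNK3 averaged 2241 ± 859 at ZT0, 643 ± 77 at ZT6, 14.5 ± 1.19 at ZT12 and 13.8 ± 5.82 at ZT18 in jaz4-1. In Col-0 it averaged 1779 ± 88.1 at ZT0, 603 ± 49.6 at ZT6, 12.5 ± 6.04 at ZT12 and 9.76 ± 2.80 at ZT18.

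Of 16 clock genes of the day and evening, 15 changed over the day in each line, where 53.5% of all genes did in jaz4-1 and 49.1% in Col-0, and LWD2 did not pass the test. LUX, a MYB factor of the evening complex, was the 1 gene of the 16 called at ZT18, where 0.138% of all genes were, with 417, 414 and 571 normalised reads in jaz4-1 and 247, 233 and 182 in Col-0. All jaz4-1 libraries were above all Col-0 libraries, and the log2 difference was 1.07 ± 0.16 (limma, adjusted p = 0.00113). CHE, a TCP factor that represses CCA1, was the 1 gene of the 16 called at ZT6, where 2.95% of all genes were (3871, 3337 and 3783 in jaz4-1, 2658, 2481 and 2206 in Col-0; log2 difference 0.58 ± 0.14, limma, adjusted p = 0.028). DESeq2 called there 3 of the 16 (CHE, GI and TOC1) and limma-voom 2 (CHE and GI). At ZT0 and ZT12 limma, edgeR, DESeq2 and limma-voom called 0 of the 16, where limma called 0.923% and 0.321% of all genes. Under an unadjusted 0.05 limma had 1 of the 16 at ZT0 and 0 at ZT12, beside 2556 and 957 of the 19614 tested genes. The median log2 difference of the list was 0.02 at ZT0, 0.26 at ZT6, 0.04 at ZT12 and 0.14 at ZT18. Of 12 tested clock outputs, all changed over the day in each line, and PIF5, a bHLH growth factor, was the 1 of the 12 called at ZT6 (4865, 4522 and 4249 in jaz4-1, 2647, 2773 and 2535 in Col-0; 0.78 ± 0.15, limma, adjusted p = 0.00643). The calls of CHE and PIF5 stand beside a lower level of PYK10 in jaz4-1 than in Col-0 at ZT6. This gene made up nearly all of the root marker sums there, 55.9 to 105 CPM in jaz4-1 and 178 to 259 CPM in Col-0. The part of that difference in the calls was not tested. At ZT0, ZT12 and ZT18 limma, edgeR, DESeq2 and limma-voom called 0 of the 12. Under an unadjusted 0.05 limma had 0 of the 12 at ZT0, 2 at ZT12 and 1 at ZT18, beside 2556, 957 and 595 of the 19614 tested genes. On average over times LUX (0.46 ± 0.08, limma, adjusted p = 0.000968) and PIF5 (0.42 ± 0.08, limma, adjusted p = 0.00196) were the limma calls of these lists, where 4.68% of all genes were called. DESeq2 called 3 of the 16 on average (LUX, GI and CHE), edgeR and limma-voom called LUX alone, and all 3 tools called PIF5. YUC8, the auxin synthesis gene downstream of RVE1, was near the detection floor at ZT12, with 1, 7 and 2 recovered reads in jaz4-1 and 0, 5 and 0 in Col-0. PORA, another gene that RVE1 acts on in seedlings, had 0, 4 and 0 recovered reads in jaz4-1 and 0, 0 and 0 in Col-0, and a line difference of either gene was not detectable at that depth. YUC8 and PORA, and LNK3 above, were named after their values were seen.

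The genes whose course over the 24 libraries was most like that of these genes were taken by Pearson correlation of log2(scaled reads + 1) among 13923 genes with a mean of at least 100 scaled reads. The libraries share their times and depths, so the coefficients describe the likeness and carry no test. For the mean of CCA1 and LHY the highest were CIPK1, a protein kinase (r = 0.987), AT2G38800 (0.985), RUP2, a repressor of UV-B signalling (0.982), AT4G37550 (0.982) and NDT1, a NAD transporter (0.982). The nearest to RVE1 was BMY3 of the beta-amylase family (r = 0.987), and the nearest to RVE2 was TRFL9 (0.979). LNK2 was most like LNK3 (r = 0.990), and LNK1 was most like PHT4;1, a phosphate transporter (0.980). The nearest gene to RVE6 reached 0.920, the lowest of the 10 best matches. Among the members, LHY and RVE4 were most alike (r = 0.987), CCA1 was nearest to LNK2 (0.960) and LNK1 to RVE7 (0.937), while RVE2 ran most against RVE7 (-0.77).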

How the data were processed

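The members and gene lists were chosen with earlier results of these data known, and named genes of the lists are those called, up to 3 a list and comparison. Per the submitters' processing notes, reads were aligned with HISAT2 to TAIR10 and counted with featureCounts. The deposited expression values are a signal per gene, headed RPKM by the authors, but their steps show counts of reads over a single size factor for each library. Whole reads came back from 100% of values in each library (tolerance 0.001 reads), and the factors matched medians of ratios taken within each time. The authors' deposited table also gives log2 fold changes and an adjusted p-value per time, and the test behind them was not verified here.

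Genes with at least 10 reads in enough libraries and 15 in total entered 1 limma fit over the 8 groups (19614 genes, 16 residual degrees of freedom). Lines were compared at each time on log2(deposited value + 1). For comparisons across times, reads were rescaled over all 24 libraries. P-values were adjusted by Benjamini-Hochberg over all tested genes, with 0.05 as the threshold. Alternatives were edgeR and DESeq2 on recovered reads, limma-voom, other scalings, filters and pseudocounts, a replicate block, and leaving out libraries. Software was R 4.3.3, limma 3.58.1, edgeR 4.0.16 and DESeq2 1.42.0. The limma fit of the line difference at ZT12 was tried on counts simulated from the means and spreads of these data. That was a test of the code and says nothing on the call of any member. Sequences and gene models came from RefSeq on TAIR10.1, to which 24297 of 24503 identifiers were matched. Replicates are biological per the labels, and intervals cover the spread between them.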

Additional observations from a re-analysis of the deposited data

Results flagged for a closer look

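RVE1 drew attention because its line difference at ZT12 differed, by a direct test, from its mean line difference at the other times (log2 1.36 ± 0.25 SE, limma, adjusted p = 0.0232). In jaz4-1 the 3 libraries at ZT12 had 115, 101 and 175 normalised reads, against 32.2, 57.0 and 39.8 in Col-0, and RVE1 was higher in 3 of 3 jaz4-1 libraries. The adjusted p of that test ran from 0.000342 to 0.334 over the alternatives, and no explanation was tested. It reuses the ZT12 libraries of the call between the lines, so it is not separate evidence.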

How the results depend on the processing

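No direction of a called value was reversed. The count of members whose line difference depends on time was 0 and became 1 with DESeq2. Leaving out 1 library at a time gave 1 to 2 members called at ZT12, 1 to 2 on average over times, and 0 to 1 for dependence on time. The 2 at ZT12 and on average came without Col-0 ZT12 replicate 3, which added LHY (adjusted p = 0.0386 at ZT12 and 0.0403 on average, limma; 0.0386 to 1 and 0.0403 to 0.281 over the alternatives). The 1 for dependence on time came without Col-0 ZT12 replicate 2 (RVE1, adjusted p = 0.0441, limma; 0.00147 to 0.345 over the alternatives). With the 6 libraries of ZT12 alone the count at ZT12 was 1 as well, but the gene was RVE2 and not RVE1. Of 60 pairs of gene and times, leaving out 1 library at a time gave 51 to 52 called in jaz4-1 and 51 to 54 in Col-0, and DESeq2 and limma-voom each gave 53 in jaz4-1 and 56 in Col-0. With the replicate block, RVE1 at ZT12 had an adjusted p of 0.000662 (limma), and its contrast of ZT12 with the other times 0.0303, and no member's call changed between the lines. The numbers were not taken to pair the libraries, which required a correlation of deviations over 0.1 in every same-numbered pair of the lines, and 7 of 12 had one (range -0.1211 to 0.3895). All 3 pairs at ZT0 were over 0.1, and at ZT0 and ZT6 every library correlated best with the one of its own number, which it did not at ZT12 and ZT18, so the data hint at pairing at those earlier times while the labels state none. Values under about 20 reads a library, such as LHY and CCA1 at ZT12 and LNK1 at ZT18, are limited by depth.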

Other observations

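In the longer window of 1000 bases before the annotated start, the G-box (CACGTG) occurred in 5 of the 10 promoters against 15.7% of all, and the CCA1-binding site (AAAAATCT) in 3 against 20.7%. In that window the evening element (AAAATATCT) occurred in 1 of the 10 against 7.30% of all, and the TCP site (GGNCCC) in 1 against 22.1%. The G-boxes shown above for RVE8 and LNK2 lie after the start and that of LNK1 spans it, so this window does not hold them. RVE8 held 2 other G-boxes in it, at -888 and -814 from the start.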
